A study of Homo sapiens with 6 samples.

Results

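Immediate early response genes were examined as 10 human genes chosen by name (EGR1, EGR2, EGR3, IER2, IER3, IER5, DUSP1, ZFP36, KLF6 and KLF10), out of 20162 protein-coding genes of the annotation. All 10 were found by symbol, and every one had at least 1 SMARCA4 peak in its gene span plus 10 kb on each side, 36 of the 28265 peaks in all. The study measured where SMARCA4, the ATPase of the SWI/SNF chromatin remodelling complex, lies on DNA in K562, an established chronic myelogenous leukaemia line of erythroid character, in order to compare these places with DNA G-quadruplexes (G4s), which are stacked structures of guanine runs. Chromatin immunoprecipitation with sequencing (ChIP-seq) was made for 3 SMARCA4 libraries beside 3 input libraries, all from cells crosslinked with disuccinimidyl glutarate (2 mM, 30 min) followed by formaldehyde (1%, 10 min) and sheared to fragments of 150 to 400 bp. The labels name no stimulus given to the cells. The paper speaks of biological replicates, while the series design counts technical ones and 1 input. Peaks kept by the authors had been found in at least 2 of the 3 replicates, and a kept peak is a start and an end on hg19 with no height, so the values below are positions, widths and base composition without a spread between replicates.

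Immediate early genes are transcribed within minutes of a growth factor, stress or cytokine signal without new protein synthesis. Kinase cascades reach factors that already sit near these genes, such as serum response factor with its ETS partners at CArG boxes and CREB at cyclic AMP response elements (CREs), and many of the products are transcription factors or inhibitors that shut the signal off again. The genes are short, and their messages decay fast.

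The 10 genes separated by whether a peak lay over the gene start, the 5′ end of the annotated span. A peak covered it at 6 of 10 (IER2, IER3, IER5, DUSP1, KLF6 and KLF10), against 30.5% of all coding genes (95% Wilson interval 29.9 to 31.2%). None of the 3 EGR genes was among them, and ZFP36 missed by 46 bp. When gaps of up to 500 bp between peaks were closed, EGR1 was covered as well, which makes 7. With 1 kb allowed on either side of the start, 8 of 10 genes had a peak, against 42.3% of coding genes, and EGR2 and EGR3 did not. For EGR2 this depends on the start used, since a peak lay 107 bp from its canonical start. For the wider window the 10 of 10 stood against 63.0% of all coding genes and 49.6% of the 4930 coding genes no longer than KLF6, the longest of the 10 at 9286 bp. The comparison with short genes matters because a longer gene has a longer window. No test was made over the 10 genes, since they were chosen together by name.

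**Figure D1:**
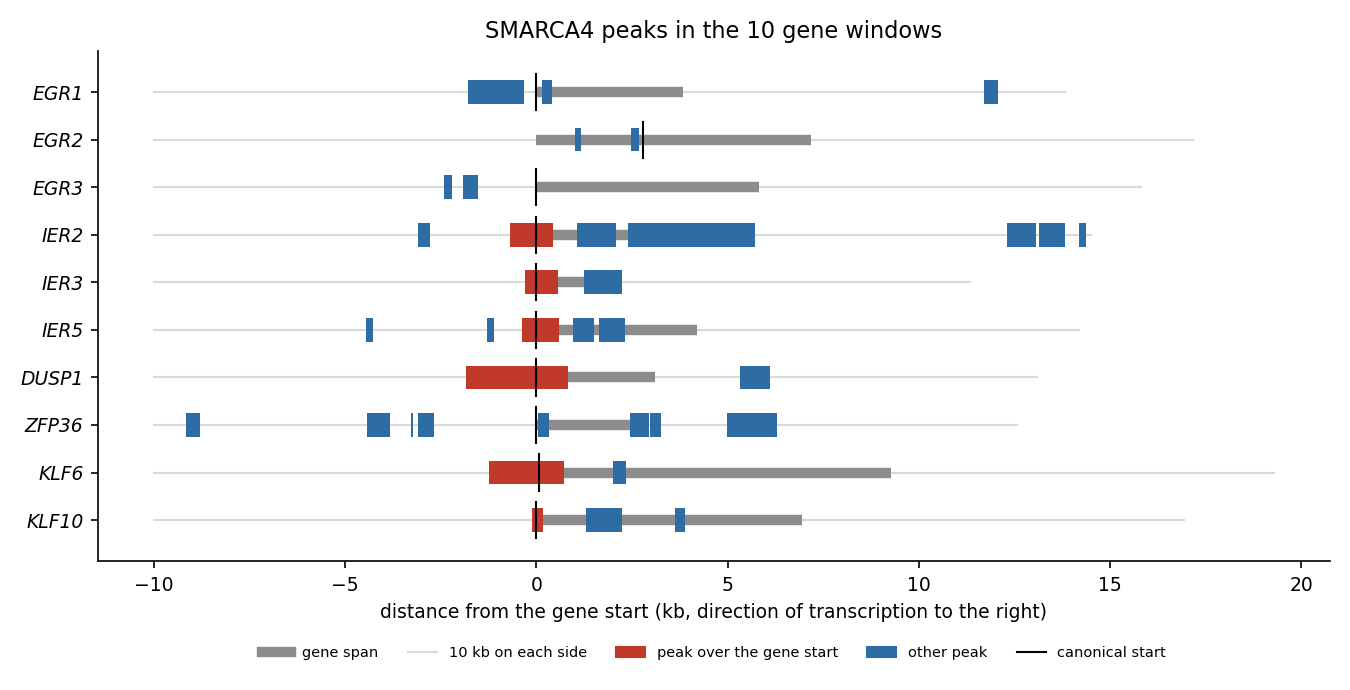
SMARCA4 peaks (red over the gene start, blue elsewhere) along each gene, in kb from the gene start with transcription to the right; the grey bar is the gene span, the thin line the 10 kb on each side and the black tick the canonical start. The 6 genes with a red bar are IER2, IER3, IER5, DUSP1, KLF6 and KLF10, while no peak of the EGR genes lies over a start.

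No gene of the 10 lay wholly inside 1 peak, a property of 0.144% of coding genes and of 0.588% of those no longer than KLF6. The nearest was IER2, where 47.0% of the span lay in its widest peak, followed by IER3 with 41.9% in its start peak. When the coding region alone was asked for, from the first to the last coding base, a choice made after the widths were seen, 1 of 10 genes qualified, IER2, against 0.257% of coding genes. In IER3 the start peak held 92.4% of the coding region.

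EGR1 encodes a zinc-finger transcription factor and is a common readout of serum induction. Its widest peak, chr5:137799368-137800855 (1488 bp, hg19), lay upstream of the gene, from -1800 to -313 counted from the start, and a second peak of 264 bp, chr5:137801306-137801569, lay in exon sequence from 139 to 402. The start itself was in the 450-bp gap between them. A peak of 367 bp, chr5:137812885-137813251, lay downstream of the gene, from 11718, with 34.1% G and C. A start in no peak with a peak within 500 bp on each side was found at 1 of the 10 genes and at 1.29% of coding genes. The gap divided the CArG boxes of the promoter. In the 500 bp upstream of the start, EGR1 had 5 CArG boxes on its own strand, of which 3 were inside the upstream peak, beginning at -418, -380 and -364, and 2 were in the gap, beginning at -105 and -83. Merging peaks at most 500 bp apart closes this gap, and all 5 boxes then lie inside. The stretches are printed because they show which boxes fall in a peak, with the boxes in capitals, first the one inside the peak (chr5:137800738-137800823, plus strand) and then the one in the gap (chr5:137801053-137801104, plus strand).
EGR1 in peak: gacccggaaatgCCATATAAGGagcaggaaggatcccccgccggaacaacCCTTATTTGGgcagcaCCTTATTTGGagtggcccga
EGR1 in gap: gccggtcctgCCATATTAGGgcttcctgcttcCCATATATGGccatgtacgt
The stretch in the peak also carries CCGGAA, the core letters bound by ETS factors, beside the boxes. Of 19881 coding genes with a canonical transcript, 2.40% (Wilson interval 2.20 to 2.62%) had any CArG box in the 500 bp upstream, 14 had 2, and EGR1 was the only one with 5.

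EGR2, a factor of hindbrain and myelin development, and EGR3, a factor induced in neurons and lymphocytes, had the smallest summed peak width of the 10, with 389 and 578 bp. The annotated span of EGR2 begins with a long transcript annotated for nonsense-mediated decay, and its canonical start lies at 2802 from the start of the span. A peak of 216 bp, chr10:64576233-64576448, ended 107 bp short of the canonical start on the upstream side, in an intron of the long transcripts, and the other, of 173 bp, chr10:64577751-64577923, lay further upstream in the same intron. The 2 CArG boxes upstream of the canonical start flanked the first of these peaks without touching it, beginning at -71 and -370. They are printed on the minus strand, with the box in capitals, at chr10:64576178-64576207 and chr10:64576477-64576506.
EGR2 near box: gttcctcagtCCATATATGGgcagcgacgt
EGR2 far box: cggatcttcgCCTTTTTTGGaaagtcccag
The near box of EGR2 has the same 10 letters as the box of EGR1 that begins at -83, and neither is in a peak. Both EGR2 peaks were over 73% G and C (73.6% and 73.4%) and held G4 motifs, here 4 runs of at least 3 guanines on either strand separated by 1 to 7 bases. The wider had 1 and the narrower had 2.

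EGR3 had no peak inside its span or within 1 kb of its start. Its peaks of 380 and 198 bp lay upstream, from -1908 to -1529 (chr8:22552522-22552901) and from -2407 to -2210 (chr8:22553203-22553400), and the wider held 3 G4 motifs and 4 GGGCGG boxes in 75.8% G and C. EGR3 also had a CArG box at -71 from its start, outside the peaks. The 3 EGR genes were thus the only ones of the 10 with a CArG box in the 500 bp upstream of the canonical start, with 8 boxes in all, and 3 of these 8, all of EGR1, were inside a peak. Over all coding genes 495 such boxes were found, and 23.6% (Wilson interval 20.1 to 27.6%) were inside a peak, while 26.4% of all bases of these 500-bp stretches were. In the stretches of the 10 genes 2716 of 5000 bases were inside a peak. This share cannot be set against the 3 of 8 boxes, which lie at the 3 EGR genes only.

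**Figure D2:**
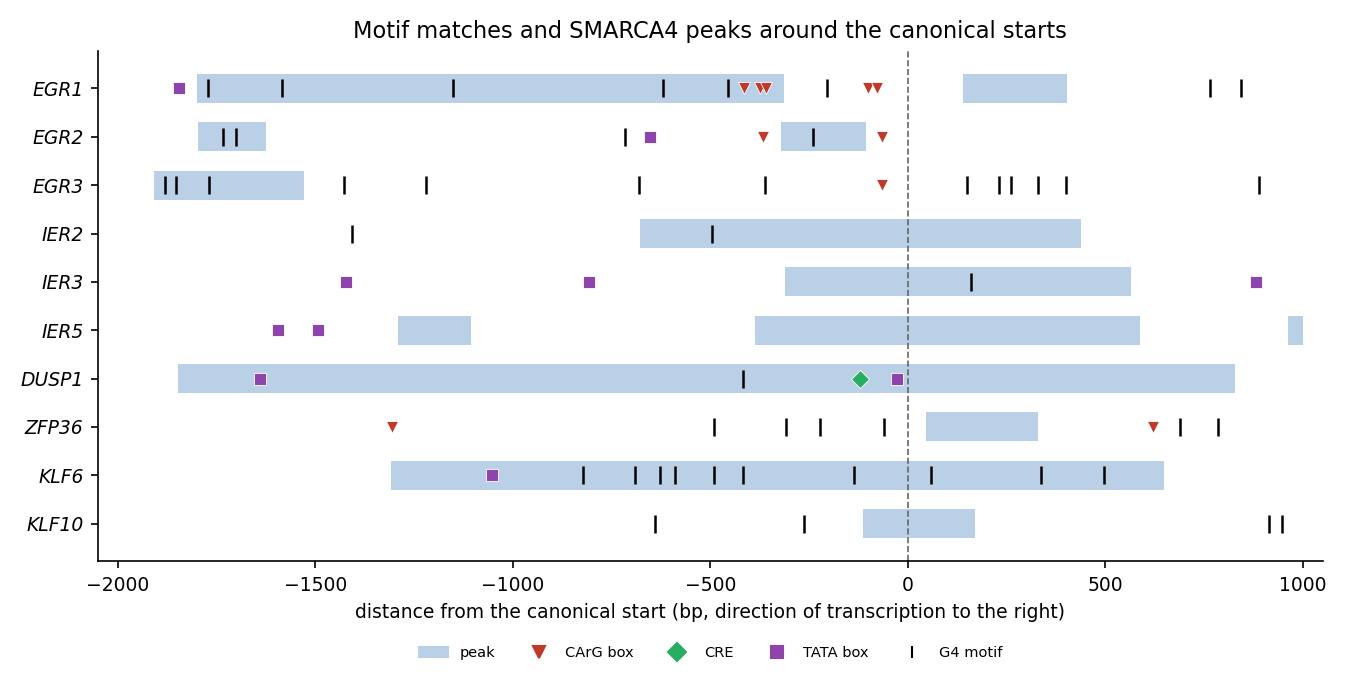
Motif matches (markers) and SMARCA4 peaks (pale bars) from 2 kb upstream to 1 kb downstream of the canonical start, in bp. The CArG boxes of EGR1 fall 3 inside and 2 outside the upstream peak, and those of EGR2, EGR3 and ZFP36 fall outside peaks. The CRE and the near TATA box of DUSP1 lie in the start peak.

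The IER genes, named only for being induced early, had the largest cover of their spans. IER2 encodes a nuclear regulator of transcription, IER3 a stress-induced regulator of cell survival, and IER5 a nuclear partner of heat shock factor. Peaks covered 79.5% of the IER2 span, 50.5% of IER3 and 42.7% of IER5, and these values exceeded those of 99.8%, 99.6% and 99.5% of coding genes. Among coding genes no longer than KLF6, 99.2%, 98.4% and 97.9% lay below the same shares. All 3 starts were covered, by peaks of 1116, 875 and 975 bp.

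IER2 had 7 peaks with 7398 bp between them, a sum larger than in 99.8% of coding genes. The start peak, chr19:13260548-13261663, also covered the start of STX10, a membrane fusion gene that runs the other way, so it cannot be given to IER2 alone. A peak of 1021 bp, chr19:13262274-13263294, lay in the intron and covered the start of a shorter protein-coding transcript, at 1565 from the gene start. The widest of all 36 peaks, chr19:13263609-13266939 (3331 bp), took in the whole last exon, with the coding sequence and the 3′-UTR, and ran past the gene end. Of all 28265 peaks 13 were at least this wide, itself included. The intronic peak held a CArG box, which ended 112 bp before the start of the shorter transcript, and the wide peak held a CRE, TGACGTCA, in the part of the last exon that precedes the coding sequence. TATAAA, the letters of the TATA box, followed the CRE at 2613 to 2618, inside a G4 motif that spans 2608 to 2635. The box (chr19:13262658-13262687) and the CRE (chr19:13263811-13263840) are printed on the plus strand, with the motif in capitals.
IER2 CArG: cgggccctgtCCTAATATGGgcaaccggaa
IER2 CRE: gggtgtctcagTGACGTCActgggggtata

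IER3 had 2 peaks. The start peak, chr6:30711760-30712634, ran from -309 to 566 and held 1 G4 motif, and the other, chr6:30710077-30711091 (1015 bp), overlapped the 3′ end of the gene and covered the start of FLOT1, a gene of membrane rafts. IER5 is a gene of 1 exon, and its 5 peaks lay in a row from -4467 to 2311. The start peak, chr1:181057448-181058422, was followed by peaks of 544 and 662 bp, which were exon sequence throughout. G and C content was lower with each of these 3 peaks, with 66.3% in the start peak, then 60.7% and 41.4%. The last of them held 4 TATAAA matches and 1 G4 motif, and neither the start peak nor the 544-bp peak had either motif. A peak over the last base of the gene was found at 3 of the 10 genes (IER2, IER3 and ZFP36), against 1.43% of coding genes.

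DUSP1, a phosphatase that switches off MAP kinases, had the widest start peak. It measured 2677 bp (chr5:172197370-172200046), from -1848 to 829, and was wider than 99.6% of peaks over coding gene starts, with 19 wider. It took in all of the 1 kb upstream, the 5′-UTR and the first exon. The stretch just before the start, inside the peak, carried a CRE at -125 to -118, the E-box letters CACGTG at -108 to -103 and TATAAA at -30 to -25. It is printed on the minus strand, from -140 to -1 (chr5:172198199-172198338), with these motifs in capitals in that order.
DUSP1 upstream: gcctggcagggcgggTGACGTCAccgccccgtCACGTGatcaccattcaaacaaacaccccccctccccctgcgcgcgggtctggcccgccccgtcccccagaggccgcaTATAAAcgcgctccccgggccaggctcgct
In the 500 bp upstream of coding gene starts, 2.89% of genes had TGACGTCA, 12.3% had CACGTG and 18.0% had TATAAA. DUSP1 was the only one of the 10 with TGACGTCA or TATAAA in that stretch. Of the 600 TGACGTCA matches in these stretches, 60.2% (Wilson interval 56.2 to 64.0%) lay inside a peak, a larger share than for the CArG boxes and for the bases as a whole. For the 4829 TATAAA matches the share was 12.1% (Wilson interval 11.2 to 13.1%), below the 26.4% of the bases. A second peak of DUSP1, 796 bp wide, lay downstream of the gene at chr5:172192083-172192878.

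ZFP36, the RNA-binding protein tristetraprolin, which speeds the decay of messages with AU-rich elements, had the most peaks of the 10, with 8. At least 5 peaks in the window were found at 3 of the 10 genes (ZFP36, IER2 and IER5), against 10.3% of coding genes. The peak nearest the start, chr19:39897533-39897815 (283 bp), ran from 47 to 329 across the end of exon 1 and into the intron, and no peak lay in the 1 kb upstream. A peak of 490 bp, chr19:39899940-39900429, lay over the gene end and held a CRE at 2684 to 2691, past the last exon. The remaining ones lay 4 upstream and 2 downstream, and the last of these, 1300 bp wide, covered the start of PLEKHG2. The CRE is printed on the plus strand, in capitals (chr19:39900159-39900188), to be set beside those of IER2 and DUSP1.
ZFP36 CRE: ctggcaggaagTGACGTCAccgggcctggc
The 3 genes with a CRE in a peak thus had it at different places, upstream of the start in DUSP1, in the last exon in IER2 and beyond the gene end in ZFP36. Of the 36 peaks 3 held TGACGTCA (8.33%), against 1.81% of all peaks.

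KLF6, a zinc-finger factor of the Krüppel-like family, had the second widest start peak, chr10:3826754-3828709 (1956 bp), wider than 98.4% of peaks over coding gene starts. It ran from -1236 to 720 and held 10 G4 motifs, 10 GGGCGG boxes and 4 matches to GCGNGGGCG, the letters bound by EGR proteins. Neighbouring G4 motifs upstream of the canonical start share the letters GGGGAC at their 5′ end, as the lines on the minus strand show, in capitals throughout because the whole run is the motif (chr10:3827976-3828005, chr10:3828013-3828042 and chr10:3828076-3828106).
KLF6 G4 near: GGGGACGGGGGGGAACCGGGCGGCCCCGGG
KLF6 G4 middle: GGGGACAGTTGGGGACGGGGCGGCCTCGGG
KLF6 G4 far: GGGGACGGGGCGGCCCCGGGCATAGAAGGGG
They begin at -604, -641 and -705 from the canonical start. The other peak of KLF6, chr10:3825118-3825480 (363 bp), lay in the first intron and differed in kind, with 48.2% G and C, no G4 motif, an AP-1 match (TGACTCA or TGAGTCA) and a CArG box at 2131 to 2140. That box is printed on the minus strand in capitals (chr10:3825324-3825353).
KLF6 CArG: tgagctgggtCCTTATTTGGctgctgatga
Its 10 letters are those of 2 of the boxes in the upstream peak of EGR1.

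The start peaks had a median width of 1045.5 bp at the 6 genes, from 285 to 2677 bp, against 571 bp over the 6157 coding genes with a start peak. When peaks at most 500 bp apart were merged, the median was 1956 bp over 7 starts, while the 571 bp is without merging. Among the 6 unmerged start peaks, that of KLF10, a Krüppel-like factor induced by transforming growth factor beta, was the exception. It measured 285 bp, and only 12.9% of peaks over coding gene starts were narrower. The start peak was not the widest of this gene. Its widest peak instead measured 945 bp, lay in the first intron and covered the start of a second protein-coding transcript at 1351 from the gene start. This intronic peak held 6 GCGNGGGCG matches, the most of any of the 36 peaks, and 11 GGGCGG boxes. Separate intronic peaks therefore covered a further transcript start at IER2 and KLF10, while those of KLF6 at 73 and 89 lay in its start peak. Over the 10 genes, 12 of 21 distinct starts of protein-coding transcripts were in a peak, and these made up all such starts of the 6 genes and none of the other 4. This count describes the 10 genes only, because no share over the transcript starts of all coding genes stands beside it. With the canonical start in place of the gene start, 6 of 10 genes were again covered, against 34.7% of coding genes.

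**Figure D3:**
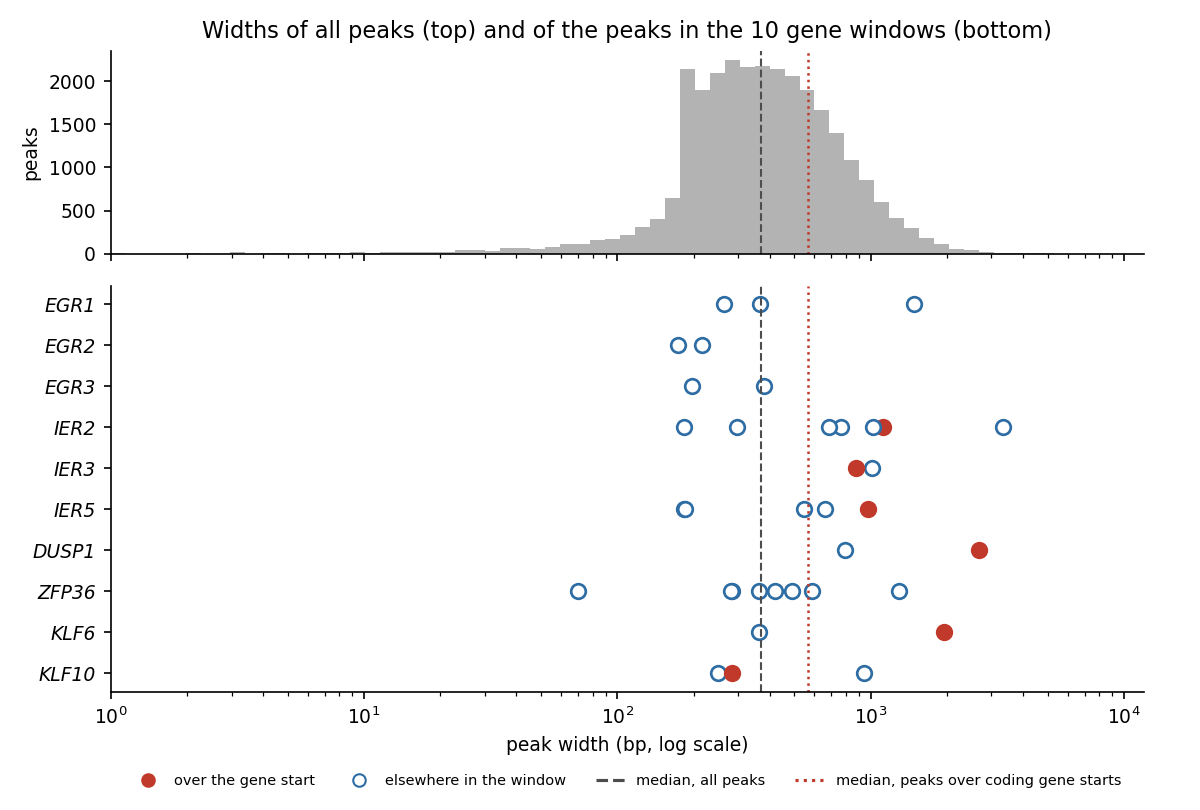
Widths of all 28265 peaks (top, number of peaks) and of the 36 peaks of the 10 genes (bottom), in bp on a log axis; filled circles lie over the gene start, open circles elsewhere, and the lines mark the medians of all peaks (368 bp) and of peaks over coding gene starts (567 bp). Of the 6 filled circles 5 lie right of both lines, and KLF10 with 285 bp lies left of both.

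The peaks reached into gene bodies. Summed over the 10 canonical transcripts, 43.9% of the 1 kb upstream and 55.8% of the 5′-UTR were in peaks, against 16.9% and 22.1% over all coding genes. In the coding sequence the share was 23.9% against 1.6%, and in the 3′-UTR 13.8% against 0.603%. The sums for the coding sequence and the 3′-UTR lean on the IER genes. The whole coding sequence and 3′-UTR of IER2 were in peaks, as were 90.6% of the coding sequence of IER3 and 61.9% of that of IER5. EGR2 and EGR3 had no base of their canonical exons or introns in a peak. All coding genes include far longer ones, and the part of gene length in this contrast was not tested.

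**Figure D4:**
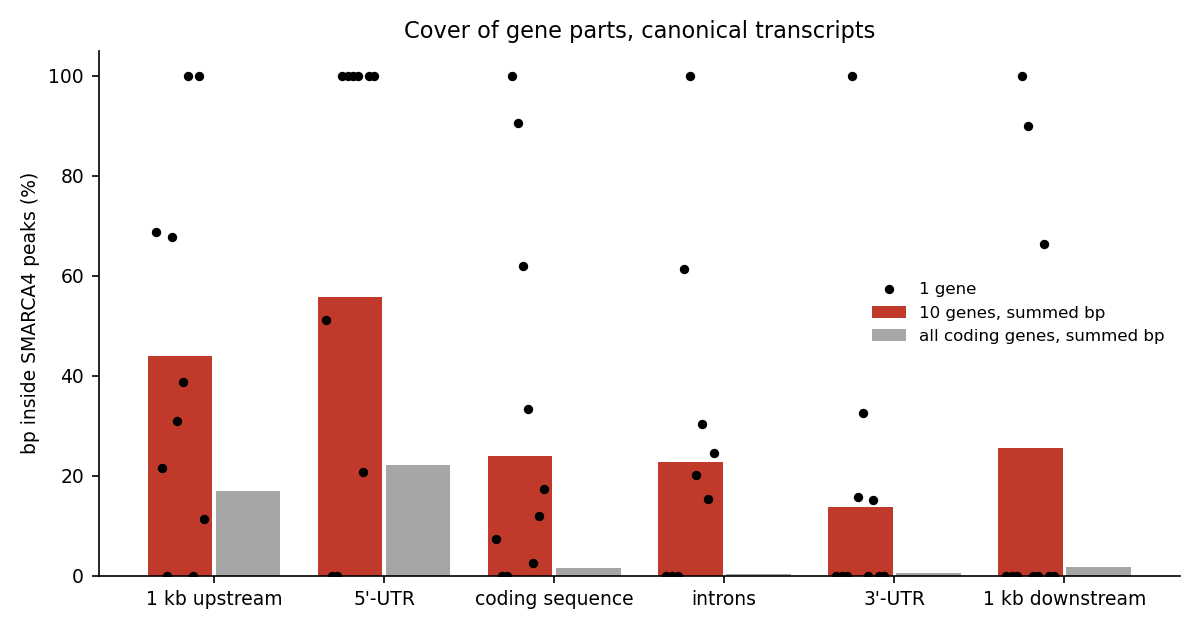
Percent of bp inside SMARCA4 peaks for each part of the canonical transcript and 1 kb on either side, summed over the 10 genes (red) and over all coding genes (grey), with each gene as a point. The 5′-UTR points at 100% belong to IER2, IER3, IER5, DUSP1, KLF6 and KLF10.

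G4 motifs were found in 18 of the 36 peaks (50%) and in at least 1 peak of each of the 10 genes, against 23.4% of all peaks (Wilson interval 22.9 to 23.9%). GCGNGGGCG was in 12 of the 36 peaks (33.3%, against 10.1%), with 22 matches at 9 genes, EGR2 being without. GGGCGG was in 23 peaks (63.9%, against 39.3%) and CCGGAA in 14 (38.9%, against 18.0%). CArG boxes were in 3 peaks (8.33%, against 2.41%), those of EGR1, IER2 and KLF6. The AP-1 letters were in 5 of 36 peaks (13.9%), near the 17.3% of all peaks, and the GATA motif (GATA after A or T and before A or G) in 15 (41.7%), against 51.3%. The 36 peaks were somewhat wider than all peaks, with a median of 455 bp against 368 bp, and the part of width in these shares was not tested. The 6 start peaks taken alone held G4 motifs at 4 genes (IER2, IER3, DUSP1 and KLF6), against 50.4% of all peaks over coding gene starts, and no CArG box, against 2.45%. Among the 920 peaks over coding gene starts that were 1 kb or wider, these shares were 76.8% and 6.52%, and 3 of the 6 were of that width (IER2, DUSP1 and KLF6). A match describes the letters and does not show that a factor was bound.

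Other genes of the same response ranged from no peak at all to a peak over the whole gene. Over all coding genes 63.0% had a peak in the window and 30.5% had the start covered. Of 16 further transcription factors listed as induced 15 had a peak in the window, EGR4 being without, and 8 had the start covered. JUND, an AP-1 subunit, lay wholly inside a start peak of 4443 bp. After it the widest start peaks were those of NR4A2 (1904 bp), FOSL1 (1744 bp), JUN (1421 bp) and JUNB (930 bp). Of 16 feedback inhibitors and RNA decay factors 13 had a peak and 9 had the start covered. Here TNFAIP3, an inhibitor of NF-kB signalling, led with 1771 bp, before BTG2 (1756 bp), ZFP36L2 (1689 bp), SOCS3 (1015 bp) and BTG1 (824 bp), while DUSP2, DUSP4 and SPRY2 had no peak. Of 16 other induced genes 11 had a peak and 7 had the start covered. PPP1R15A, the stress-induced phosphatase subunit GADD34, lay wholly inside a peak of 4895 bp, and GADD45A (2417 bp), MCL1 (1123 bp), TRIB1 (1082 bp) and PLK3 (959 bp) followed. RHOB, CTGF, ARC, GEM and PLK2 had none, which leaves this list at 68.8%, near the 63.0% of all coding genes.

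The kinases and factors upstream of the response are not themselves chosen for induction. Of these 19 genes 18 had a peak in the window (94.7%) and 14 had the start covered (73.7%), against 63.0% and 30.5% of all coding genes. The share of covered starts was larger than the 60% of the 10 genes. SRF (1541 bp), ATF1 (1392 bp), ELK4 (1259 bp) and MAPK14 (797 bp) were among the widest, and ELK3 had no peak. Many of the 19 are longer genes, whose windows are larger. Among 30 paralogs of the 10 genes 21 had a peak (70%, near the 63.0%) and 13 had the start covered (43.3%, against 30.5%). EGR4, DUSP2, DUSP4, DUSP9, KLF5, KLF7, KLF8, KLF12 and KLF17 had none, and the widest start peaks were at KLF16 (1808 bp), ZFP36L2 (1689 bp), DUSP10 (1267 bp), KLF3 (1241 bp) and DUSP3 (1094 bp). Genes of 1 family thus differed among themselves, as EGR1, EGR2 and EGR3 with 3, 2 and 2 peaks did from EGR4 with 0.

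**Figure D5:**
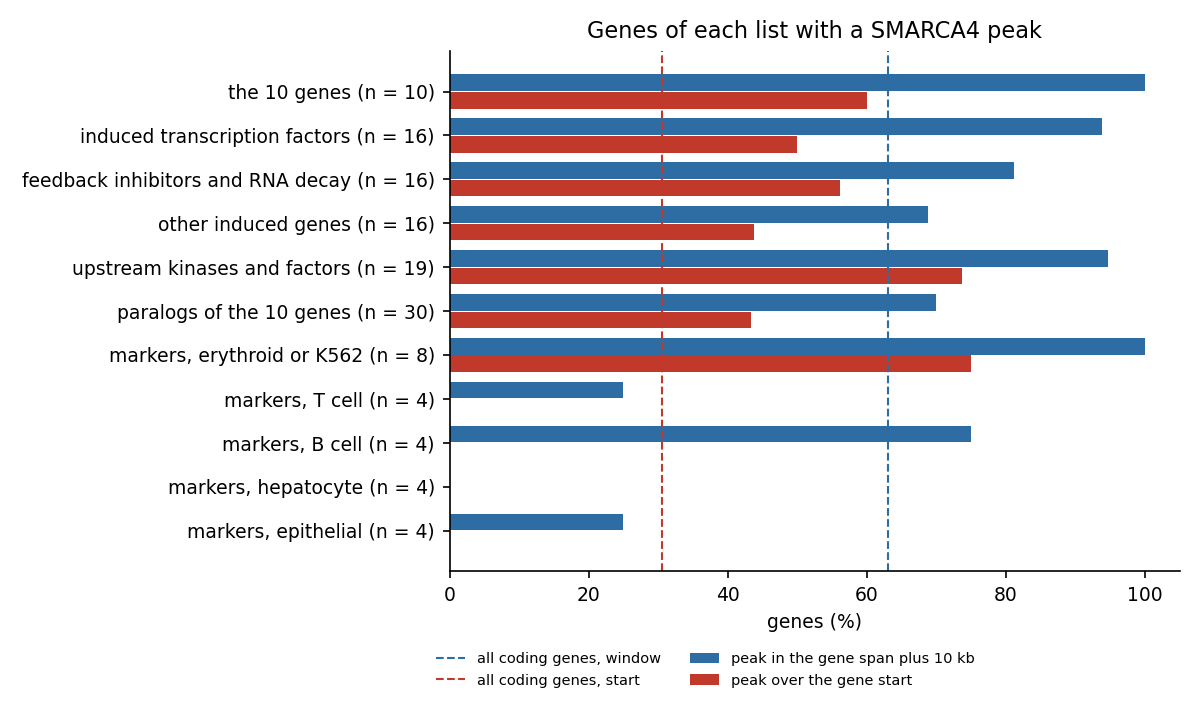
Percent of the genes of each list with a SMARCA4 peak in the gene span plus 10 kb (blue) and over the gene start (red), with all coding genes as dashed lines (63.0% and 30.5%). The 10 genes reach 100% and 60%, and the marker lists have 4 to 8 genes each, so that 1 gene moves a bar far.

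Genes wholly covered by 1 peak were rare and mostly short. Of the 29 such coding genes 21 had the symbol of a histone gene, and 4 were longer than IER3, the shortest of the 10 with 1350 bp. The 5 longest were PPP1R15A (3848 bp), JUND (1929 bp), CEBPB (1839 bp), FTL (1571 bp) and H1-4 (787 bp). PPP1R15A and JUND come from the lists above, which were chosen with earlier results of these data known. Markers of the erythroid character of K562 had a peak in the window at 8 of 8 genes and over the start at 6. Over all coding genes the shares were 63.0% and 30.5%. HBG2, among the 6, has an annotated span of 252418 bp, against 1589 bp for HBG1, so its start peak is that of this long span. HBG1 and GATA1 had no start peak. None of the 16 markers of T cells, B cells, hepatocytes and epithelium had a peak over the start, though 5 had 1 in the window.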

How the data were processed

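The deposited peak list was used as the authors made it. Reads had been trimmed with cutadapt 1.16, aligned to hg19 with BWA 0.7.15 and freed of duplicates with Picard 2.14.0 and SAMtools 1.6, and the authors called peaks per replicate with MACS2 2.1.1 (q-value threshold of 0.05) and joined replicates with bedtools 2.26.0. Whether neighbouring peaks are pieces of 1 region was not tested. Gene spans, transcripts and canonical transcripts came from GENCODE 44 mapped to hg19, and sequence from the hg19 genome. Positions count the first base of the gene as 1 and the base before it as -1. An overlap of 1 bp sufficed. Motifs were searched on both strands, CArG boxes by their usual consensus. Older gene symbols were matched through RefSeq synonyms (GRCh38.p14, names only). Named genes were the 10 genes and, in each list, those wholly covered by 1 peak, the 5 widest start peaks and, where few, those without a peak. Of the genes this rule names, 1 is not reported here. The 10 genes and the lists were chosen with earlier results of these data known. Python 3.11.15, numpy 2.4.6, scipy 1.17.1, pysam 0.24.0 and matplotlib 3.10.9 were used, and the overlap and motif searches were checked on simulated data. Alternatives changed the window, the peaks used, the gene start, the gene span, the motif letters and the genes counted. Wilson intervals cover counting error only, and the read depth behind a peak is not given by the list.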

Additional observations from a re-analysis of the deposited data

How the results depend on the processing

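Of 35 alternatives over 9 results, 26 left the value within 1.5 times the reported count or within its interval. For the median start peak width the interval is the range of the 6 peaks, 285 to 2677 bp, and within it the median moved from 1045.5 to 1956 bp when peaks at most 500 bp apart were merged, which covers 7 starts. The number of peaks at the 10 genes was 19 with no added window and 78 with 50 kb on each side, while the genes with a peak numbered 9 or 10 at each window tried, EGR3 being lost without the added window. Genes with a covered start numbered 6, or 7 with merged peaks, which add EGR1, and 8 had a peak within 500 bp or 1 kb of the start. No alternative of peaks, span share or transcript gave a wholly covered gene, and the coding region, chosen after seeing the data, gave 1. In 1 kb centred on the start, G4 motifs were found at 8 genes against 4 in start peaks, and CArG boxes at 2 against 0. With 1 mismatch in the core, 1 start peak held a CArG box, and with TGACG 3 start peaks held the shorter CRE letters against 1. The share of coding genes with a peak in the window was 64.5% on autosomes and 49.6% among genes no longer than KLF6. The cause was not tested in any of these.

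No paired analysis was possible because the list pools the replicates, and leaving out a replicate was not possible for the same reason. Peaks have no height, so a gene start outside a peak can still carry signal under the threshold. Overlaps with starts of STX10, FLOT1 and PLEKHG2 mean that some peaks cannot be assigned to 1 gene.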
